A study of Mus musculus with 7 samples.

Results

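Rab GTPases, the small proteins that give each compartment of the membrane trafficking system its identity, were examined in microglia of old and young mice after brain ischemia. All genes named Rab followed by a number and an optional letter were taken by symbol. Of 59 such genes, 55 passed an expected count of 10 in any library and form the set described here, among 50686 genes in the files. By textbook role 16 of the 55 were grouped as endosomal, 8 as phagosomal, 21 as secretory and 10 as other. The remaining 4 genes, Rab17, Rab27b, Rab39b and Rab9b, had at most 10 counts in any library.

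The libraries came from 4 Young mice of 3 to 4 months and 3 Old mice of 21 to 22 months, all male and of the C57BL/6 background, with 1 mouse per library. No drug is named for them beyond the isoflurane anesthesia and buprenorphine analgesia of the surgery. Both ages had undergone a transient occlusion of the middle cerebral artery 4 days earlier, so no group without ischemia enters the comparison. Forebrain cells were stained for CD11b and CD45 and sorted by FACS as microglia positive for Bodipy, a dye of neutral lipids, and low-input polyA RNA was amplified by a Smart-seq2 protocol without strand information. A difference in bulk libraries of this kind cannot tell fewer cells of a type from less RNA per cell. Young mice are called 14C, 18C, 23C and 29C, and Old mice 2posI, 3posI and 4posI, after their labels, and values by library are given in that order.

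A Rab protein cycles between a GDP-bound form, held in the cytosol by a dissociation inhibitor, and a GTP-bound form, placed on 1 membrane by an exchange factor and switched off there by a GTPase-activating protein. On the membrane it recruits effectors that move, tether and fuse vesicles. In phagocytes such as microglia, early endosomal Rabs hand over to late endosomal ones as engulfed material moves towards the lysosome, and secretory Rabs carry newly made proteins from the endoplasmic reticulum through the Golgi to the cell surface.

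Attachment to a membrane needs cysteines at the end of the protein, to which prenyl lipids are added. The last 30 coding bases of some of the members described below, stop codon included, are shown because they carry this shared feature, which the choice by symbol did not use. They are on the coding strand of GENCODE vM21 transcripts on GRCm38, and capitals mark the cysteine codons.
Rab21: agcagcggagggTGCTGTtcctccggctaa
Rab22a: ccatcggagccaaagcgaagcTGCTGCtga
Rab5a: ccagccagaagccagTGTTGTagtaactga
Rab7: aaggcctccgcagaaagcTGCagtTGTtga
Rab11a: ccaaaggtgcagTGCTGTcagaacatctaa
Rab29: aagccctcctctggctggacaTGCTGCtag
Rab34: agcaagaaaaaggccacaTGTTGTccctga
Rab43: attgcggagagctggggcTGTgggTGCtga
Rab14: caaccccagagagaaggcTGTggcTGCtag
Rab8a: accagcttcttccggTGCagtctcctgtga
Rab6a: ccagtcaatgaaggcggcTGTtccTGCtaa

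All 55 members had at least 1 cysteine codon among the last 5 codons before the stop. There were 2 such codons in 46 members and 1 in the other 9, of which Rab8a is an example. The pair stood side by side at the very end in 14 members, as in Rab22a and Rab29, and was split by 1 other codon in 18, as in Rab7 and Rab14. In the remaining 14 with a pair, 3 carried 1, 5 carried 2 and 6 carried 3 further codons after it, as in Rab34, Rab5a and Rab21 respectively. Members of the same ending had different directions with age, as the values below show.

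Expected counts summed to 36574083 to 53002386 per library, and TMM factors, which correct library sizes for composition, were 0.952 to 1.05. The cell type was checked against its markers. The 10 microglia markers summed to 22860 to 33360 CPM (counts scaled to the total of the library) in Young and 12050 to 26330 CPM in Old libraries, and none was at 0 in all libraries. The lowest sum was that of Old mouse 3posI. That library also stood apart in 6 monocyte markers, with 2415 CPM against 36.1 to 207 CPM in the other 6 libraries, and in 4 markers of border macrophages, with 432 against 38.1 to 179 CPM. Summed markers of neutrophils were 1.55 to 124 CPM in Young and 36.9 to 106 CPM in Old, and those of endothelium and pericytes 53.3 to 122 and 46.8 to 76.4 CPM. Results are therefore also given without 3posI where that library moves an estimate by over 1.5 times or turns its sign, and the part of these cells in any result was not tested.

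Which Rab genes the sorted microglia express was described first, in TPM, which scale counts by transcript length and by library and can be compared between genes. Rab11a, of the recycling endosome, had the highest mean TPM over all 7 libraries, at 384 ± 12.5 in Young (SD, n = 4) and 383 ± 38.6 in Old (SD, n = 3). Rab7, of the late endosome, followed with 347 ± 33.2 and 401 ± 88.3 TPM. Rab14, which acts on early endosomes and phagosomes, had 340 ± 33.8 and 345 ± 20.9 TPM. Rab7 had the highest mean of the 3 in Old and Rab11a in Young, and the ranges of mean ± SD overlapped within each age.

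Rab1a, which moves cargo from the endoplasmic reticulum to the Golgi, came next with 254 ± 17.7 TPM in Young and 258 ± 63.9 TPM in Old. Rab20, a phagosomal Rab, had 162 ± 19.6 and 149 ± 61.6 TPM, and Rab1b, with a role like that of Rab1a, had 150 ± 7.37 and 148 ± 18.8 TPM. Neighbours from Rab20 to Rab4b in this order overlapped in their spread. The 5 highest members held 48.4% and the 10 highest 68.8% of the summed TPM of all members. At the other end, 18 members stayed under a mean of 10 CPM in both ages. Among them were Rab3a, Rab3b and Rab3c, known for the release of synaptic vesicles, and Rab25, known from epithelia.

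**Figure D1:**
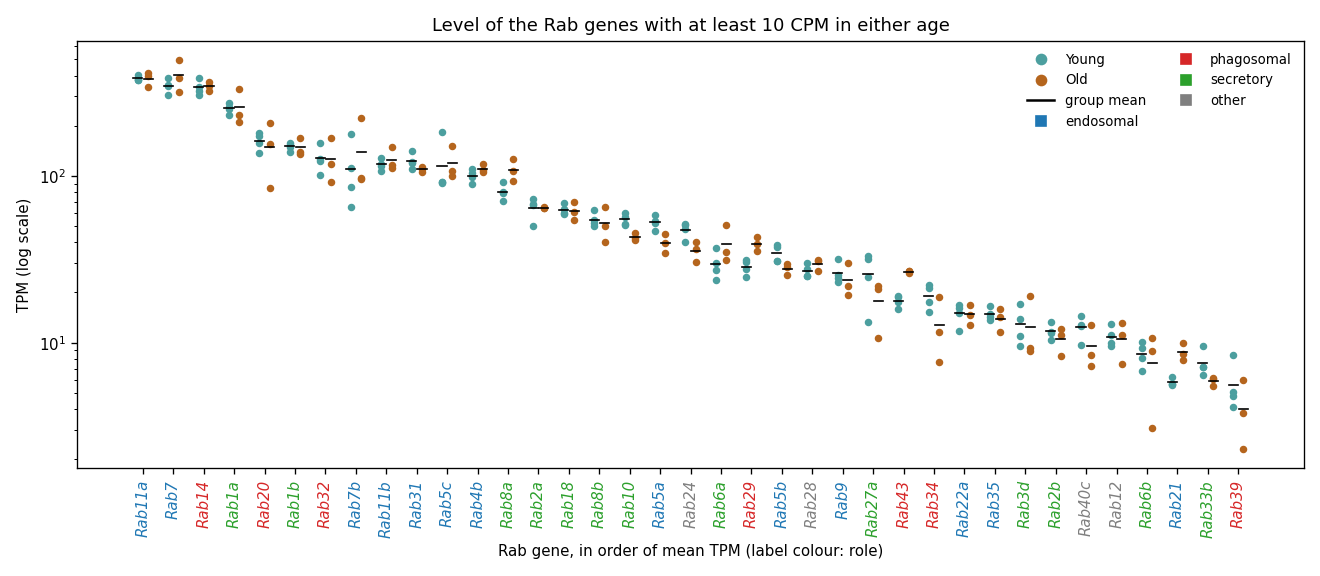
Level of the 37 Rab genes that reach a mean of 10 CPM in either age, in TPM on a log axis, in order of mean TPM. Each point is 1 library and each bar a group mean, and label colours give the role. Rab11a, Rab7 and Rab14 stand highest in both ages, and the points of the ages overlap for most genes.

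Old and Young microglia were then compared with edgeR's quasi-likelihood test over 17559 genes, with Benjamini-Hochberg adjustment over all of them. The 53 members on autosomes were tested. None of the 53 passed an adjusted p of 0.05, where 0.803% of all genes tested did. An unadjusted p under 0.05 was reached by 9 of the 53 (17.0%), against 18.9% of all genes. Rab21, Rab22a, Rab29, Rab38, Rab43, Rab8a, Rab6a and Rab44 were higher in Old (15.1% of the members, against 10.1% of all genes) and Rab34 was lower (1.89%, against 8.79% of all genes). Rab38 passed the filter on counts only through Old libraries, so its direction is not independent of that filter. The libraries of the ages did not overlap in CPM for 5 members (9.43%), against 17.7% of all genes. Of these, Rab21, Rab29, Rab22a and Rab14 were above the Young range (8.67% of all genes) and Rab34 below it (9.07% of all genes). Neither of these shares over both directions exceeded that of all genes. DESeq2 called 2 of the 53 members (3.77%), Rab21 and Rab29, where it called 9.51% of the 14754 genes to which it gave an adjusted p. The share of members is over all 53, including any that DESeq2 left without an adjusted p. With effective length as an offset edgeR called Rab43 alone (1.89%), where 1.12% of all genes passed.

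The log2 fold change, Old minus Young, was positive for 29 and negative for 24 members, with a median of 0.03 against -0.01 over all genes. Some members passed the filter on counts through a single age. These were Rab25 and Rab38 through Old, both higher there, and Rab30, Rab3c and Rab40b through Young, all lower in Old. Limits on the size of the log2 fold change could be given for the expressed members. Among the 36 tested members with at least 10 CPM, estimates lay between -0.63 and 0.83 with standard errors of 0.12 to 0.41. The 95% interval stayed inside a 2-fold change in either direction for 30 of them, as it did for 80.9% of all genes at that level. For 16 of the 36 it stayed inside a 1.5-fold change.

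**Figure D2:**
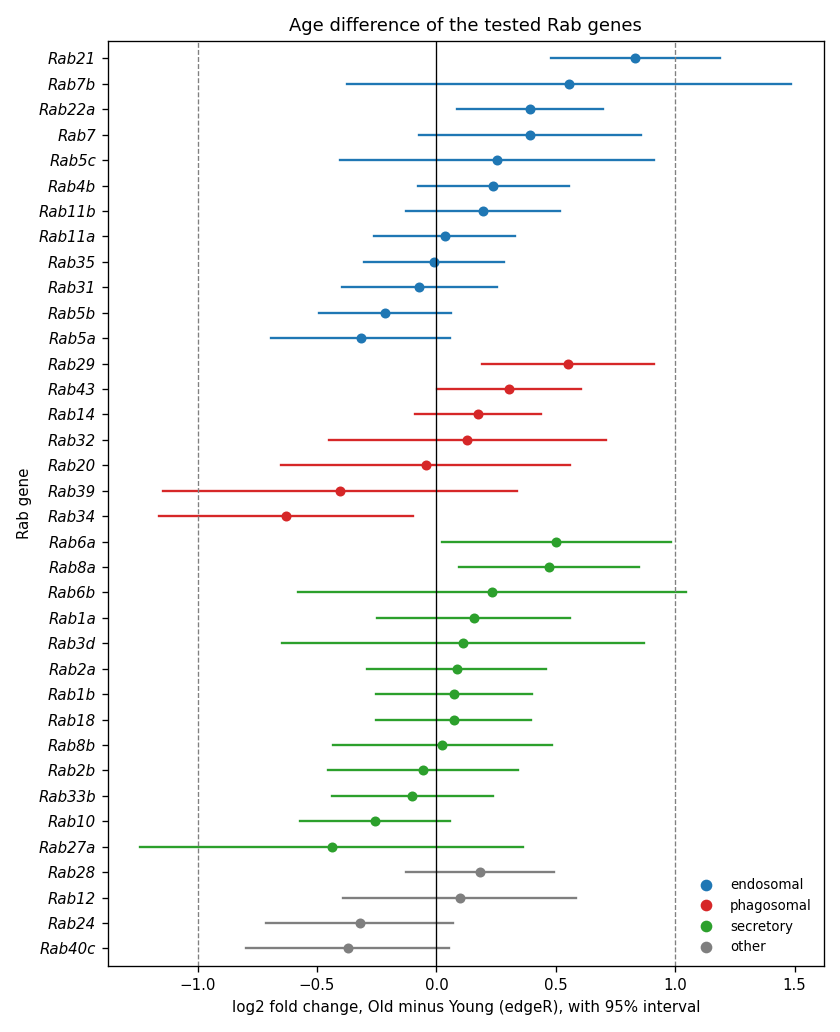
Log2 fold change of the 36 tested Rab genes with at least 10 CPM in either age, Old minus Young, as points with 95% intervals derived from edgeR's test, grouped and coloured by role. Dashed lines mark a 2-fold change. Rab21 has the largest estimate, 0.83, and Rab34 the lowest, -0.63, and the intervals of most genes cross 0.

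Of the 15 endosomal members tested, 9 were higher and 6 lower in Old, with a median log2 fold change of 0.20, and 2 (13.3%) did not overlap between ages, against 17.7% of all genes. Rab25, among those higher in Old, passed the filter on counts only through Old libraries. With 3posI left out, the middle log2 fold change of the 15 was that of Rab5c, at 0.04. Rab21, an early endosomal Rab known for the uptake of integrins, came nearest to the threshold of all members. Its gene lies at chr10:115287084-115315594 on the minus strand of GRCm38. It had 17.3, 14.4, 17.3 and 18.6 CPM in Young and 30.5, 35.01 and 24.8 CPM in Old. The lowest Old library stood above the highest Young one. The means of 16.9 ± 1.76 CPM (SD, n = 4) and 30.1 ± 5.11 CPM (SD, n = 3) gave a log2 fold change of 0.83 with a standard error of 0.16 and an adjusted p of 0.0536 by edgeR. Without 3posI the log2 fold change was 0.71, with an adjusted p of 0.0764 by edgeR. Rab21 shared no stretch of 50 bases with another gene, and its counts were whole in all libraries, so that no reads were divided with a relative.

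Rab22a, which acts with Rab5 on early endosomes, lies at chr2:173659760-173707343 on the plus strand. It had 31.7, 23.3, 30.8 and 28.5 CPM in Young and 37.5, 39.2 and 35.7 CPM in Old. All Old libraries were above all Young ones. In counts the log2 fold change was 0.39 with a standard error of 0.13 and an adjusted p of 0.173 by edgeR. This difference did not appear per length. TPM was 16.3, 11.7, 16.9 and 15.1 in Young and 12.8, 16.8 and 14.7 in Old mice, so the ages overlapped. The effective length that RSEM assigned to the gene, an average over its transcripts, was 2652 bases in Young and 3337 bases in Old. With that length as an offset in edgeR the log2 fold change was 0.06.

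The 3 Rab5 genes, the regulators of early endosome fusion, had estimates of different sign. Rab5a had 89.2, 75.2, 85.0 and 103 CPM in Young and 74.8, 81.7 and 55.9 CPM in Old. The ranges overlapped, and the log2 fold change was -0.32 with a standard error of 0.16 and an adjusted p of 0.337 by edgeR. Rab5b had 68.2 to 83.2 CPM in Young and 61.9 to 72.5 CPM in Old, with a log2 fold change of -0.22. In TPM, every Old library was below every Young one for both genes, at 34.5 to 44.96 against 46.9 to 58.4 for Rab5a and 25.4 to 29.5 against 30.9 to 38.3 for Rab5b, with adjusted p of 0.160 and 0.255 by limma.

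Rab5c was the most abundant of the 3 in TPM. It had 110, 107, 219 and 113 CPM in Young and 157, 210 and 125 CPM in Old. The highest value of all was that of a Young mouse, 23C, and the ages overlapped. An estimate of 0.25 (log2 fold change) came with an adjusted p of 0.670 by edgeR, and ranged from 0.04 to 0.57 as single libraries were left out.

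Rab7, which directs the fusion of late endosomes and phagosomes with lysosomes, had 434, 375, 473 and 462 CPM in Young and 561, 745 and 411 CPM in Old. 2posI and 3posI lay above the Young range and 4posI inside it. A log2 fold change of 0.39 had an adjusted p of 0.337 by edgeR, and it was 0.16 without 3posI. The related Rab7b, known for transport from endosomes to the Golgi, varied within both ages, from 71.4 to 191 CPM in Young and from 111 to 293 CPM in Old, and its log2 fold change of 0.56 was -0.02 without 3posI.

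Rab11a had 188, 180, 192 and 198 CPM in Young and 210, 208 and 163 CPM in Old. Its log2 fold change was 0.03, with a 95% interval from -0.26 to 0.33 and an adjusted p of 0.910 by edgeR, and it was -0.02 without 3posI. Rab11b, also of the recycling endosome, had an estimate of 0.20 (95% interval -0.13 to 0.52) that was 0.06 without 3posI, and Rab4b, of fast recycling, 0.24 (95% interval -0.08 to 0.56). The measure of Rab4b is uncertain, as 58.1% of its 50-base stretches also lie in other genes and its counts were fractional in 6 libraries. Rab31, active between the Golgi and endosomes, was at -0.07 and Rab35, of recycling to the plasma membrane, at -0.01 and without 3posI at 0.08. All of these ranges overlapped between ages.

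Rab9, which returns receptors from late endosomes to the Golgi, lies on chromosome X and was outside the main test. It had 24.4, 24.8, 31.2 and 24.7 CPM in Young and 22.2, 33.1 and 21.4 CPM in Old. The Old values lay on both sides of the Young ones. With chromosome X kept in the fit its log2 fold change was -0.04, with an adjusted p of 0.925 by edgeR.

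Among the 8 phagosomal members, 5 were higher and 3 lower in Old, with a median log2 fold change of 0.15. The ages did not overlap in CPM for 3 of the 8 (37.5%), against 17.7% of all genes. Of these, Rab29 and Rab14 were higher and Rab34 lower in Old, and only Rab29 was also apart in TPM. The roles were chosen with earlier results of these data known. With 3posI left out, the middle pair of the 8 log2 fold changes was -0.14 for Rab39 and 0.19 for Rab43. Rab29, known for bringing the kinase LRRK2 to the Golgi and to stressed lysosomes, lies at chr1:131867224-131872887 on the plus strand. It had 23.2, 20.0, 25.8 and 27.3 CPM in Young and 37.2, 39.6 and 29.0 CPM in Old. All Old libraries stood above the Young range, in CPM as in TPM, where the ranges were 24.8 to 31.3 and 35.4 to 43.0. This gave a log2 fold change of 0.55 with a standard error of 0.16 and an adjusted p of 0.131 by edgeR. The kinase gene itself, Lrrk2, was low, with 0.18 to 2.02 CPM over the 7 libraries.

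Rab34, known for the fusion of phagosomes with lysosomes and for cilium formation, lies at chr11:78188430-78192193 on the plus strand. It had 16.9, 20.2, 21.3 and 16.7 CPM in Young and 12.5, 7.97 and 15.9 CPM in Old. It was the only member tested whose Old libraries all stood below the Young range in CPM, and in TPM the ages overlapped. Its log2 fold change of -0.63 had a standard error of 0.23 and an adjusted p of 0.199 by edgeR, and it was -0.40 without 3posI, its lowest library.

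Rab43, a Rab of the Golgi that is also recruited to phagosomes, lies at chr6:87788853-87812164 on the minus strand. It had 39.6, 32.5, 33.2 and 34.1 CPM in Young and 40.6, 49.6 and 38.7 CPM in Old, where 4posI lay below Young mouse 14C. Its TPM did not overlap, at 15.9 to 19.0 in Young and 26.1 to 27.0 in Old. Its log2 fold change was 0.30 (adjusted p 0.262 by edgeR) on counts, 0.19 without 3posI, and 0.68 (adjusted p 0.0420 by edgeR) with effective length as an offset. Over the 12 alternatives that keep all libraries the adjusted p ranged from 0.0420 to 0.439. The measure is uncertain, because 74.5% of the 50-base stretches of Rab43 are also found in the overlapping gene Gm45140 on the same strand and its counts were fractional in all 7 libraries.

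Rab14 differed little and evenly. It had 311, 313, 304 and 322 CPM in Young and 380, 329 and 349 CPM in Old. All Old libraries were above the Young range, although the log2 fold change was only 0.17 (95% interval -0.09 to 0.44), and in TPM the ages overlapped. Rab32, a Rab of lysosome-related organelles, ranged from 137 to 216 CPM in Young and from 124 to 267 CPM in Old, with a log2 fold change of 0.13 that was -0.16 without 3posI. Rab20, which takes part in the maturation of phagosomes, had 128 to 178 CPM in Young and 93.2 to 220 CPM in Old, with a log2 fold change of -0.04. That value rested on single Old libraries, being -0.40 without 3posI and 0.21 without 2posI. Of the 50-base stretches of Rab20, 22.9% also lie in a gene on the opposite strand, and its counts were fractional in all 7 libraries. Rab39, linked to the acidification of phagosomes, had 8.51 to 17.2 and 5.32 to 12.3 CPM, with a log2 fold change of -0.40 that was -0.14 without 3posI. Rab38, close to Rab32 in function, had 0 to 3 expected counts in Young and 22, 13 and 3 in Old mice, a level at which counting error is large. It passed the filter on counts only through 2posI and 3posI, so its direction is not independent of that filter.

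**Figure D3:**
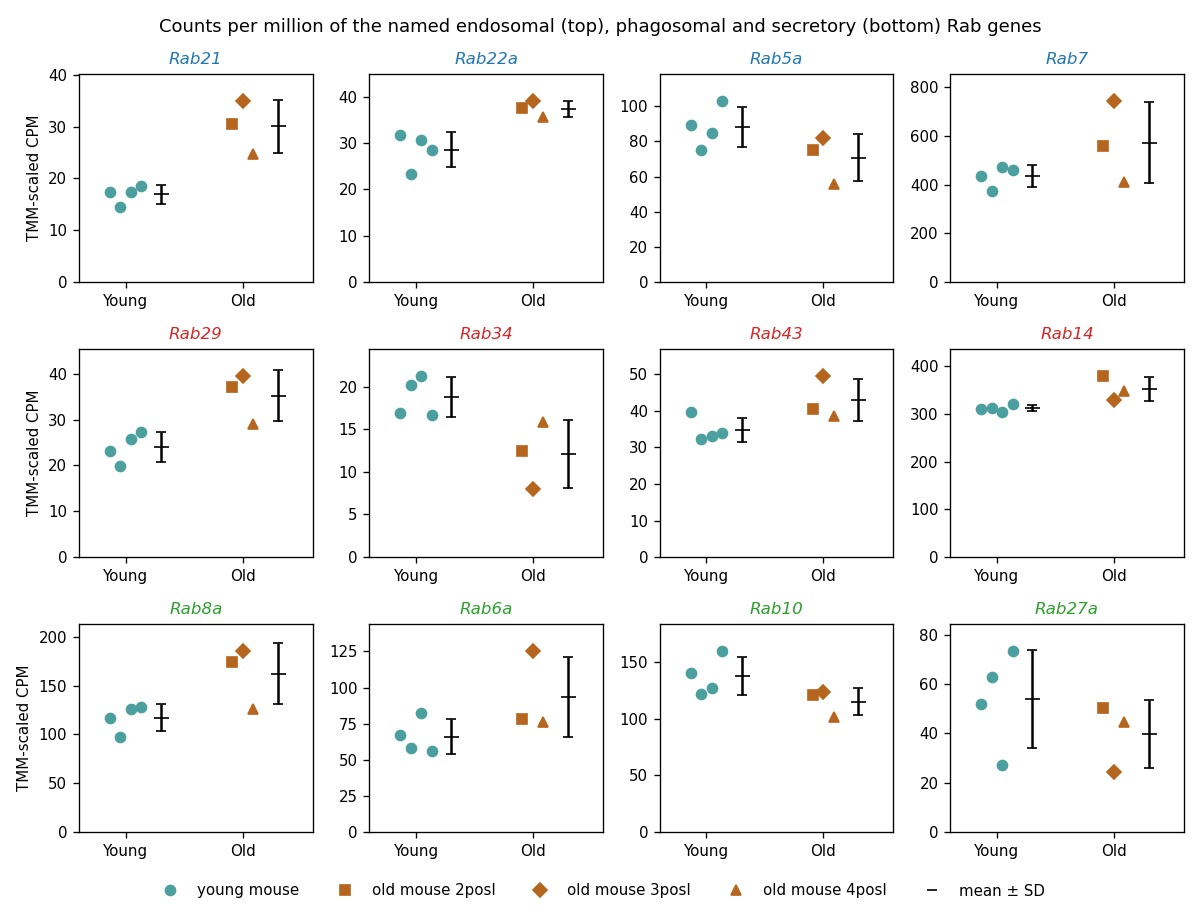
TMM-scaled CPM of 12 Rab genes in each library, endosomal in the top row, phagosomal in the middle and secretory at the bottom, with group mean ± SD (n = 4 Young, n = 3 Old). Circles are Young mice, and squares, diamonds and triangles are Old mice 2posI, 3posI and 4posI. Rab21, Rab22a, Rab29, Rab34 and Rab14 do not overlap between ages, and 3posI is the highest Old library of all genes shown except Rab34, Rab14 and Rab27a.

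Of the 20 secretory members tested, 10 were higher and 10 lower in Old, and the median log2 fold change was -0.02. None was without overlap between ages in CPM, against 17.7% of all genes. With 3posI left out, the middle pair of the 20 log2 fold changes was -0.06 for Rab33b and -0.09 for Rab1a. Rab8a, which carries vesicles to the plasma membrane and is a substrate of LRRK2, lies at chr8:72161200-72183904 on the plus strand. It had 117, 97.2, 126 and 128 CPM in Young and 174, 186 and 126 CPM in Old. 2posI and 3posI were above the Young range and 4posI inside it. This was a log2 fold change of 0.47 with a standard error of 0.17 and an adjusted p of 0.181 by edgeR. In TPM, Old libraries with 93.7 to 127 were all above Young ones with 71.1 to 92.0.

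Rab6a, of transport within and from the Golgi, lies at chr7:100607410-100641268 on the plus strand and had 66.9, 58.5, 82.6 and 56.1 CPM in Young and 78.5, 125 and 76.4 CPM in Old. Only 3posI exceeded the Young range. Its estimate of 0.50 (adjusted p 0.245 by edgeR) was 0.23 without that library. Exons of Rab6a overlap those of Mrpl48 on the opposite strand, and without strand information reads from this stretch cannot be told apart.

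Rab10, of transport to the plasma membrane, had 141, 122, 127 and 160 CPM in Young and 120, 123 and 101 CPM in Old, where edgeR gave a log2 fold change of -0.26 (adjusted p 0.353). Its ranges overlapped narrowly in CPM but were apart in TPM, where Old was lower, at 41.6 to 45.2 against 50.7 to 60.3. Rab27a, which docks lysosome-related organelles for release, had 51.9, 63.0, 27.0 and 73.5 CPM in Young and 50.3, 24.3 and 44.7 CPM in Old. The Young values alone spanned 27.0 to 73.5 CPM, and the log2 fold change of -0.44 had a 95% interval from -1.24 to 0.36. It was -0.18 without 3posI and ranged from -0.66 to -0.18 as single libraries were left out.

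Rab18, the Rab best known from the surface of lipid droplets, is of interest in cells sorted by a dye of those droplets. It had 100.1, 91.8, 107 and 100.2 CPM in Young and 109, 121 and 84.3 CPM in Old. The Old values lay on both sides of the Young range. The log2 fold change was 0.07, with a 95% interval from -0.25 to 0.40 and an adjusted p of 0.822 by edgeR, an interval that stays under a 1.5-fold change in either direction. Without 3posI it was -0.05.

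Rab1a had 316, 296, 323 and 298 CPM in Young and 296, 450 and 283 CPM in Old. Only 3posI was above the Young range, and the log2 fold change of 0.16 was -0.09 without it. The other abundant secretory members had estimates near 0, namely Rab1b with 0.07 (-0.06 without 3posI), Rab2a of the Golgi with 0.08 and Rab8b with 0.03 (-0.19 without 3posI), each with overlapping ages. Rab3d, of regulated secretion, had 16.1 to 32.0 CPM in Young and 16.3 to 40.0 CPM in Old, with a log2 fold change of 0.11 that was -0.39 without 3posI. Rab33a, the other member on chromosome X, had 0.27 to 1.18 CPM over all libraries.

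Of the 10 members with other or less settled roles, 5 were higher and 5 lower in Old, with a median log2 fold change of -0.01. None was without overlap in CPM, against 17.7% of all genes. With 3posI left out, the middle pair of the 10 log2 fold changes was 0.09 for Rab28 and 0.17 for Rab36. Rab24, associated with autophagy, had 66.3, 60.8, 51.5 and 71.3 CPM in Young and 53.9, 57.5 and 38.6 CPM in Old, where edgeR gave a log2 fold change of -0.32 (adjusted p 0.348). Of its 50-base stretches, 49.6% also lie in Prelid1 on the opposite strand. Its expected counts were whole in all 7 libraries, so that RSEM divided no reads between the genes. Whole counts do not show which gene such reads came from, and without strand information the measure of Rab24 is uncertain. Rab40c, a Rab that takes part in a ubiquitin ligase, had 15.2 to 22.3 CPM in Young and 12.6 to 17.7 CPM in Old, with -0.37. Rab28, known from cilia, was at 0.18 (0.09 without 3posI) and Rab12, of transport to lysosomes, at 0.10 (0.28 without 3posI). Rab44, an unusually long Rab of immune cells with 725 codons, had 5 to 21 expected counts in Young and 20, 65 and 17 in Old mice, the highest in 3posI.

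The library 3posI contributed much of the spread among Old mice. It had the highest CPM of all 7 libraries for 19 of the 37 members with at least 10 CPM (51.4%), against 28.3% of all genes at that level. 4posI was highest for none of the 37 and lowest for 13, and Young mouse 18C was lowest for 11. The members higher in Old numbered 25 of 53 without 3posI, and their median log2 fold change was then -0.02.

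**Figure D4:**
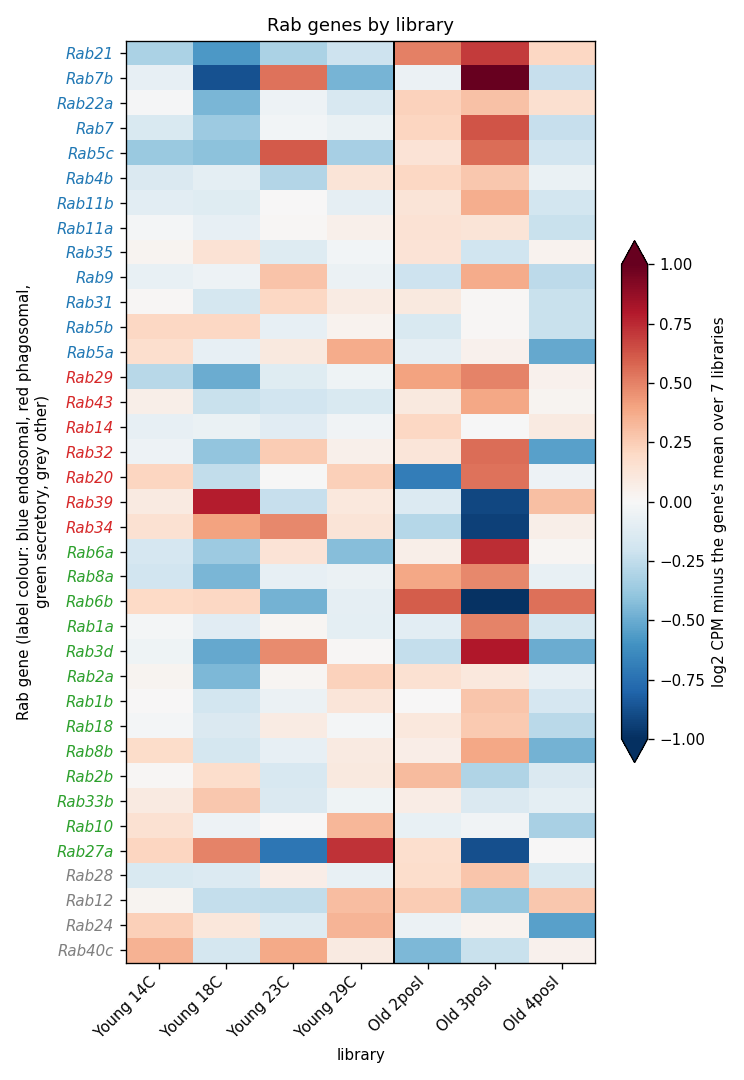
Log2 CPM of the 37 Rab genes with at least 10 CPM in either age, minus the mean of each gene over the 7 libraries, with libraries in columns and genes in rows grouped by role. Values beyond the ends of the colour scale take its end colours. The column of Old mouse 3posI holds the highest value for 19 genes, while Old mouse 4posI holds none.

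Counts and length-corrected values were set side by side. Over the 36 tested members with at least 10 CPM, 23 were higher in Old in counts and 13 in TPM, the median log2 difference being 0.09 in counts and -0.04 in TPM. All genes at that level shifted in the same way, from a median of 0.03 to -0.10, so that the members' position relative to other genes was alike on both scales. The sign differed between scales for 10 of the 36, all of them higher in counts and lower in TPM. The widest gaps were those of Rab6b, with 0.23 in counts (0.59 without 3posI) and -0.34 in TPM, and of Rab22a. In TPM, 8 of the 53 (15.1%) did not overlap between ages, against 17.5% of all genes. Rab21, Rab29, Rab43 and Rab8a were higher, against 6.26% of all genes, and Rab5a, Rab5b, Rab10 and Rab33b lower, against 11.2%. Rab21 and Rab29 were the 2 members without overlap on both scales, and both were higher in Old.

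**Figure D5:**
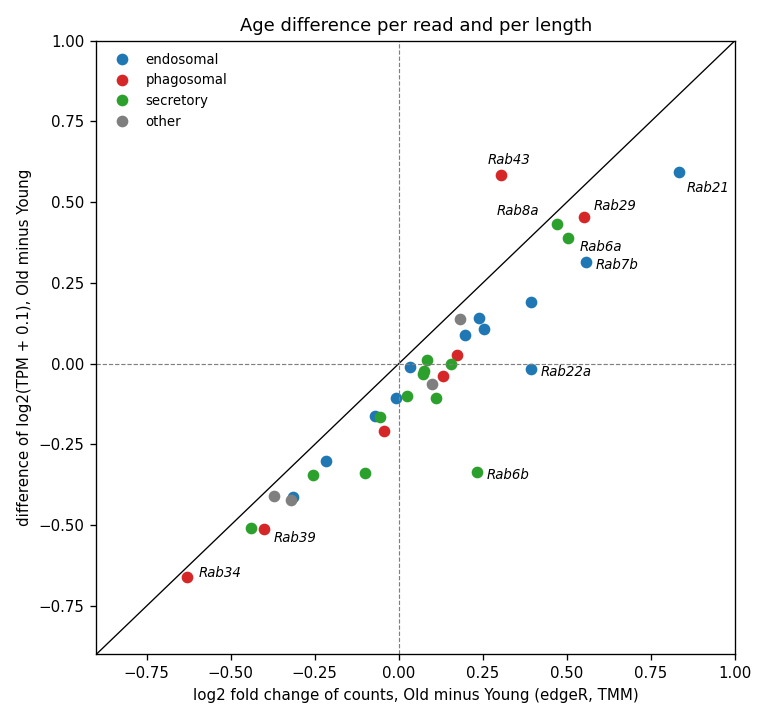
Difference between ages, Old minus Young, of the 36 tested Rab genes with at least 10 CPM, as the log2 fold change of TMM-scaled counts (x axis) and as the difference of log2(TPM + 0.1) (y axis), coloured by role. The diagonal marks equal values. Most genes lie below it, Rab22a and Rab6b farthest, and Rab43 lies above it.

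Related genes can share a task, so the share of each paralogue in the summed TPM of its family was computed for the 7 families with several members of at least 10 CPM, a comparison chosen after values were seen. Rab8a made up 56.3%, 58.7%, 63.7% and 59.2% of the Rab8 family in Young and 68.0%, 66.0% and 70.0% in Old mice, the rest being Rab8b. Its share was above the Young range in 3 of 3 Old mice. An exact permutation test, two-sided, gave p = 0.0571, and 0.400 after adjustment over the 7 families. The share of Rab5c in the Rab5 family was 49.95% to 68.8% in Young and 61.4% to 66.9% in Old, and that of Rab6a in the Rab6 family 74.5% to 84.6% and 76.6% to 94.3%. Rab11a held 75.9% to 77.8% of the Rab11 family in Young and 73.4% to 77.5% in Old. Adjusted p for the leading member of the other 6 families were 0.600 to 0.886 by the exact permutation test.

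The total of Rab transcripts was compared as 1 value per library. All members together had 3915, 3478, 4128 and 4036 CPM in Young and 4208, 5076 and 3530 CPM in Old. The Old range enclosed most of the Young one. The means of 3889 ± 288 (SD, n = 4) and 4271 ± 775 (SD, n = 3) gave a ratio of 1.10, with p = 0.371 by a two-sided exact permutation test. In TPM the ratio was 1.02, with 3090 ± 236 and 3160 ± 433 and p = 0.771 by the same exact test. The smallest p this design allows is 0.0286.

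By role, summed CPM had ratios of Old to Young of 1.14 for endosomal, 1.08 for phagosomal, 1.07 for secretory and 0.912 for other members. Only 3posI was above the Young range in the endosomal, phagosomal and secretory sums, at 2323, 918 and 1705 CPM. The Young ranges were 1459 to 1888, 668 to 775 and 1225 to 1428 CPM, and 2posI and 4posI lay inside or below them. In TPM the ratios by role, in the same order, were 1.05, 1.00, 1.01 and 0.882. Only the group of other members did not overlap between ages in TPM, at 103 to 110 in Young and 93.8 to 94.3 in Old, with p = 0.0286 by the exact permutation test. Over the 10 sums compared its adjusted p was 0.286, and Rab24, whose measure is uncertain as said above, held the largest part of that sum.

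Genes that act on Rabs were taken from textbook lists of 120, of which 110 were tested. Old was higher in 53 and lower in 57 of them, with a median log2 fold change of -0.02, and 2 passed the threshold against 0.803% of all genes. Both were exchange factors of the DENN family. Dennd5a had 46.7, 44.7, 31.3 and 46.5 CPM in Young and 99.4, 71.2 and 83.4 CPM in Old. Dennd1b, which activates the endosomal Rab35, had 12.3, 11.6, 9.65 and 11.8 CPM in Young and 19.2, 22.4 and 22.8 CPM in Old. All Old libraries were above all Young ones for both genes.

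The log2 fold change of Dennd5a was 1.00 with a standard error of 0.18 and an adjusted p of 0.0475 by edgeR, and that of Dennd1b was 0.92 with a standard error of 0.14 and an adjusted p of 0.0365. Both calls were lost without 14C, 18C, 23C, 29C, 2posI or 4posI in turn, with adjusted p up to 0.146 and 0.124 by edgeR, and kept without 3posI. The log2 fold changes of these fits with 1 library fewer stayed at 0.87 to 1.11 for Dennd5a and 0.85 to 0.997 for Dennd1b. With effective length as an offset Dennd5a kept its call (adjusted p 0.0328 by edgeR) and Dennd1b did not (log2 fold change 0.55, adjusted p 0.210). Dennd5a missed the threshold with upper-quartile factors (adjusted p 0.0514 by edgeR) and on the TPM scales (0.0572 and 0.0614 by limma), where Dennd1b missed it too (0.389 and 0.408).

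None of the other lists had a gene past the threshold by edgeR. Of 34 exchange factors 17 were higher and 17 lower, of 33 GTPase-activating proteins 15 and 18, and of 35 effectors 16 and 19. An unadjusted p under 0.05 was reached by 9 exchange factors (26.5%), 11 GTPase-activating proteins (33.3%) and 9 effectors (25.7%), against 18.9% of all genes. Gapvd1, an exchange factor of Rab5, had 70.1 to 78.1 CPM in Young and 91.3 to 96.7 CPM in Old, at a log2 fold change of 0.34 (adjusted p 0.132) that was 0.20 with effective length as an offset. Among the GTPase-activating proteins, Evi5 had a log2 fold change of 0.66 (adjusted p 0.0775) and Evi5l of -0.73 (adjusted p 0.101), while Tbc1d22b was at -0.64. With the length offset Evi5 was at 0.31 (adjusted p 0.293).

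Among effectors, Rab11fip5, which binds Rab11 on recycling endosomes, had 91.0, 108, 91.0 and 66.1 CPM in Young and 47.8, 54.6 and 61.5 CPM in Old. The Old libraries lay below the Young range, at a log2 fold change of -0.71 (adjusted p 0.0980 by edgeR). Rabep2, an effector of early endosomes, had -0.33 (adjusted p 0.158 by edgeR), and -0.09 with the GC trend removed (adjusted p 0.691 by edgeR). Rims1, of the same list, was higher in Old at a log2 fold change of 2.59 (adjusted p 0.167 by edgeR). Its level was near the floor, with 0.02 to 0.08 CPM in Young and 0.13 to 0.60 CPM in Old. Only Old mouse 2posI, at 0.60 CPM, took Rims1 past the filter on counts, so the direction of Rims1 is not independent of that filter. Of the general machinery, Gdi2, the dissociation inhibitor, had 421 to 438 CPM in Young and 425 to 544 CPM in Old, and the escort protein gene Chml 2.51 to 4.96 and 4.50 to 7.28 CPM, with overlapping ages for both. Rabif, of that list too, was at 0.18 (adjusted p 0.645 by edgeR), and at -0.04 without 3posI. Ppm1h, the phosphatase that reverses the phosphorylation of Rabs by LRRK2, had 148 to 220 CPM in Young and 129 to 167 CPM in Old. The kinase gene Lrrk1 had 31.4 to 48.8 CPM in Young and 30.9 to 40.8 CPM in Old, at a log2 fold change of -0.24 (adjusted p 0.484 by edgeR). It was -0.16 without 3posI and 0.05 with effective length as an offset.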

How the data were processed

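RNA of sorted microglia from 4 Young and 3 Old mice was measured by RNA-seq, and groups and animal codes came from the sample labels. Reads were trimmed (skewer) and aligned to GRCm38 (STAR) by the authors, who then ran RSEM with the GENCODE m15 annotation. For STAR and RSEM no version is named. The authors deposited RSEM expected counts (estimated counts, not normalized), TPM, FPKM (not used here) and effective lengths. No molecular identifiers are named, so precision from depth covers counting error only.

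Expected counts were rounded. Genes needed a count above 10 in at least 1 library, and X, Y and M were left out of the main test. In R 4.3.3, edgeR 4.0.16 gave TMM factors and quasi-likelihood tests, with age as the only term, as neither batch nor pairing is labelled. Standard errors were derived from the log2 fold change and the F statistic of the test, and 95% intervals from these errors with the t distribution. P-values of the fits set the age difference against the spread within each age of these 7 libraries, which was estimated in part across genes. Coordinates and coding ends came from GENCODE vM21, which lacked 224 identifiers. Reads shared between genes were judged by 50-base stretches in transcripts, and counts were called whole within 0.005. The sums and paralogue shares were compared by exact permutation of the absolute difference of means.

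Alternatives were limma-voom (limma 3.58.1), DESeq2 1.42.0, other factors, filters and rounding, effective length as an offset, log2(TPM + 0.1) and log2(TPM + 1) in limma, removal of a GC trend (lowess span 0.3) and each library left out. The fit was tested on simulated data. Members, roles and gene lists were chosen with earlier results of these data known. Named are the 4 members of smallest p per role with at least 10 CPM, the 5 of highest TPM, textbook members, those on X with at least 10 CPM and 3 genes of smallest p per regulator list. Others named were picked after their values were seen.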

Additional observations from a re-analysis of the deposited data

Results flagged for a closer look

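In 2 of the 26 groups of 4 Young libraries checked, 1 library stood far from the other 3, and chance alone marks about 1 in 20 such groups. Both times it was mouse 23C. For Rab5c it had 219 CPM against 107 to 113 CPM in the other Young mice, a gap of 0.946 of the whole Young range. For Rab9 it had 31.2 CPM against 24.4 to 24.8 CPM, a gap of 0.940 of the range.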

How the results depend on the processing

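The count of members past the threshold, 0 by edgeR, was 2 with DESeq2 (Rab21, adjusted p 0.000356, and Rab29, adjusted p 0.0398). By DESeq2, 9.51% of the genes given an adjusted p passed. The count was 1 with a filter of at least 1 CPM in at least 3 libraries (Rab21), 1 with no filter (Rab21) and 1 with effective length as an offset (Rab43). All of these were higher in Old. No share of all genes is given for the alternative filters, so the calls of Rab21 with them cannot be set against a general rate. Over the alternatives that keep all libraries the adjusted p of Rab21 ranged from 0.000356 to 0.1502 and that of Rab29 from 0.0398 to 0.159. The count stayed at 0 in the other 8 alternatives of this kind and without any 1 library. The 29 members higher in Old were 18 with log2(TPM + 0.1) and 18 with log2(TPM + 1), where the median log2 difference of members was -0.11 and -0.059 and that of all genes with log2(TPM + 0.1) was -0.13. The summed CPM, 9.83% higher in Old, differed by -0.514% without 3posI and by -0.514% to 19.4% as each library was left out in turn. For 23 named members, 437 values were recomputed, of which 408 kept their sign and side of the threshold, 5 newly passed it, and 24, in 7 members, changed sign without passing it. No paired analysis was possible because the labels of the ages share no replicate number. With 3 against 4 libraries, members under 10 CPM had wide intervals, so that large changes of these could have been missed.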
